A study of Mus musculus with 8 samples.

Results

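Genes of glycolysis, gluconeogenesis, fructose use, pyruvate dehydrogenase and the tricarboxylic acid (TCA) cycle were followed in kidneys of mice with mutant uromodulin. The set holds 37 genes: 14 of glycolysis, 5 of gluconeogenesis and fructose use and 18 of pyruvate dehydrogenase and the TCA cycle. A member was found by its symbol in the platform annotation, or as the same gene under a newer symbol (Pkm2 as Pkm). The annotation named 30 of the 37 in this way, among 9030 named genes of the array, on 43 elements. An element is a cDNA clone spotted on the slide. Gpi1, Pgk1, Eno1, Pck1, G6pc, Dld and Idh2 had no element under their symbol or a newer one and were not analysed here. Each gene has 1 value, from its brightest element bright enough to test, meaning a foreground of 2 or more times the background around the spot, in either channel, on each of the 2 arrays of at least 3 mice. This left 27 genes to test in Umod A227T, 20 in Umod C93F and 19 in both. Hk2 and Pkm2 were too dim in either line, as was Gapdh in A227T, and Hk1, Pfkl, Pfkm, Pdha1, Idh3a, Suclg2, Fh1 and Mdh2 were too dim in C93F.

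Glycolysis splits glucose into pyruvate in the cytosol, and pyruvate dehydrogenase passes its carbon as acetyl-CoA to the TCA cycle in mitochondria. The proximal tubule of the kidney lives mainly on oxidation of fatty acids and other fuels through the TCA cycle, makes glucose by gluconeogenesis and takes up fructose, while the thick ascending limb and the distal segments use glycolysis to a larger extent. In whole kidney RNA the proximal tubule contributes a large part of the transcript. Fewer cells of a type and less RNA per cell cannot be told apart in such samples.

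Whole kidney RNA came from 4 males with Umod A227T and from 4 with Umod C93F, and each mouse was hybridised against pooled wild-type RNA on 2 dye-swapped cDNA arrays, 16 in all. Per the study's methods both lines carry point mutations of Umod from chemical mutagenesis, A227T mice were homozygous and C93F mice heterozygous. The labels give male sex for mutants and pools, ages with no unit (19 in A227T, 39 in C93F), and reference cDNA pooled from 6 control animals. The methods describe a different number of wild-type littermates and give slightly lower ages for both lines, in weeks. The effects of the mutation, the age, the zygosity, the pool and the set of hybridisations cannot be told apart in any difference between the lines. Both lines carry a missense change in the gene itself and not a loss of it. Values are log2 ratios of mutant over pool for each mouse. This direction is likely rather than settled, because the labels do not settle which dye held the mutant RNA, and it was inferred from ratios that the authors processed and from legends in their supplement. A turned direction would change every sign below. The pool is 1 control sample per line, so no p-value holds the spread between wild-type mice.

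The C93F arrays were dimmer, with 15.3% to 42.3% of spots past the foreground limit on an array (median 28.1%) against 56.7% to 74.0% (median 64.9%) in A227T. The median SD between the 4 mice over the tested genes was 0.16 in A227T and 0.08 in C93F. These SDs are of mouse means over 2 dye-swapped arrays and do not hold the difference between those arrays. That difference had a median over the tested genes of 0.36 in A227T and 0.24 in C93F. No spot of a member was saturated. Umod itself had a log2 ratio of -0.07 ± 0.09 (SD, n = 4 mice) in A227T (adjusted p = 0.658, limma) and fell in C93F by 0.32 ± 0.13 (adjusted p = 0.0036, limma). The C93F scans of mice 1 and 2 each fit the other's column of processed ratios, which leaves the means over the 4 mice as they are.

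In Umod C93F kidneys, 13 of the 20 tested genes fell and none rose at an adjusted p under 0.10 (limma, Benjamini-Hochberg over all 3337 tested elements). Over all tested elements of this line 24% passed this limit, 14.7% as lower and 9.29% as higher. The members were brighter than these elements (median log2 intensity 7.92 against 7.63), so the shares are not matched for brightness. The changes were small. The largest was 1.32-fold, and no member reached the 1.4-fold limit that the study also applied, which 1.05% of all elements passed (1.02% as lower and 0.03% as higher). The median over the 20 genes was -0.19 on the log2 scale and that over all tested elements 0.02, and 19 of the 20 means lay below 0, against 43.2% of all elements. In 15 of the 20 genes every mouse was below 0, against 19.5% of all elements, and in none was every mouse above 0, against 20.2%. Mice resembled each other in this: their medians over the 20 genes ran from -0.18 to -0.15, and 16 to 19 of the 20 genes were below 0 in each. All 4 mice share 1 pool, so a departure of that pool would move their ratios alike. These counts use the brightest tested element of each gene, and other tested elements of Aldoa and Tpi1 had means above 0. Calls of 4 genes, Mdh1, Idh1, Aco1 and Fbp1, held under all alternative settings, with adjusted p-values up to 0.0941. Without the filter on dim spots, which put 20749 elements into the adjustment, these 4 were the members that fell.

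**Figure D1:**
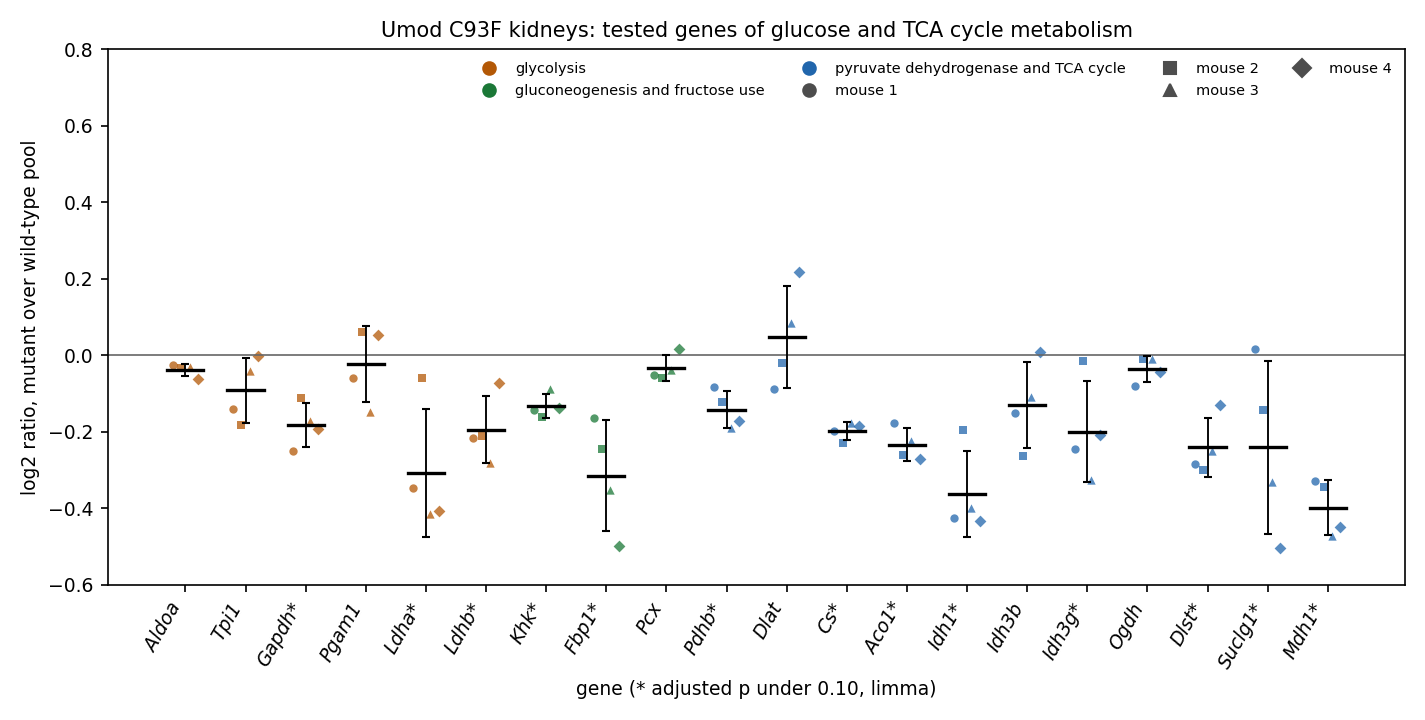
Log2 ratio of mutant over wild-type pool (vertical axis) for the 20 tested genes in Umod C93F, with 1 point per mouse, a bar for the mean and whiskers for the SD of 4 mice. Of the 20 means, 19 lie below 0, with Mdh1 lowest at -0.40 and Dlat highest at 0.05.

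The lowest mean in C93F with normexp and loess was that of Mdh1, cytosolic malate dehydrogenase, which interconverts malate and oxaloacetate and serves the malate-aspartate shuttle. Its log2 ratios were -0.33, -0.34, -0.47 and -0.45 in mice 1 to 4, with a mean of -0.40 ± 0.07 (SD, n = 4, adjusted p = 4.84e-04, limma). All 4 mice lay well below 0 and close together. With the authors' processed ratios Mdh1 was at -0.22, above Fbp1 at -0.33 and Idh1 at -0.31 and further members, and Idh1 was also below Mdh1 with print-tip loess, with median centring and without mouse 2. Idh1, cytosolic and peroxisomal isocitrate dehydrogenase, which yields NADPH, came next at -0.42, -0.20, -0.40 and -0.43 (mean -0.36 ± 0.11, adjusted p = 0.00141). Mouse 2 stood apart from the other 3. A further, dimmer element of Idh1 did not follow: its values were 0.56, -0.14, -0.26 and -0.18, so that 3 mice were below 0 and mouse 1 far above it, and its mean was -0.01 ± 0.38 (adjusted p = 0.979). Aco1, the cytosolic aconitase that also acts as iron regulatory protein, was at -0.18, -0.26, -0.23 and -0.27 (mean -0.23 ± 0.04, adjusted p = 0.00478). These 3 are the cytosolic members of the TCA group, and each of the 3 fell.

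Of the 8 mitochondrial members tested in C93F, 5 fell, and their means ran from -0.24 to 0.05 with a median of -0.17. Cs, citrate synthase, which opens the cycle, had almost the same value in each mouse: -0.20, -0.23, -0.18 and -0.18 (mean -0.20 ± 0.02, adjusted p = 0.00883). Its 2 arrays per mouse, averaged in these values, differed by a median of 0.59, so the small SD does not measure array precision. A second tested element of Cs stood at -0.07 ± 0.11 and did not pass (adjusted p = 0.361). Dlst, the succinyltransferase subunit of the 2-oxoglutarate dehydrogenase complex, was at -0.28, -0.30, -0.25 and -0.13 (mean -0.24 ± 0.08, adjusted p = 0.00619). The gene of the catalytic subunit of that complex, Ogdh, was near the pool with a mean of -0.04 ± 0.03 (adjusted p = 0.56), and its 4 values spanned only -0.08 to -0.01. Its element was dimmer, with each channel past the foreground limit on 5 of 8 arrays against 8 of 8 for Dlst. The background correction used draws ratios toward 0, so the 2 genes are not compared further. Suclg1, the alpha subunit of succinyl-CoA ligase, spread most, at 0.02, -0.14, -0.33 and -0.50 (mean -0.24 ± 0.23, adjusted p = 0.0564). Its other tested element fell to a like extent with less spread, at -0.14, -0.24, -0.21 and -0.33 (mean -0.23 ± 0.08, adjusted p = 0.00777).

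The NAD-dependent isocitrate dehydrogenase is built from the products of Idh3a, Idh3b and Idh3g. Idh3g fell, with values of -0.25, -0.02, -0.33 and -0.21 (mean -0.20 ± 0.13, adjusted p = 0.0342), mouse 2 being near 0. Idh3b had a mean of -0.13 ± 0.11 and did not pass (adjusted p = 0.115), and Idh3a was too dim to test. For pyruvate dehydrogenase, which feeds the cycle, the gene of the E1 beta subunit, Pdhb, fell at -0.08, -0.12, -0.19 and -0.17 (mean -0.14 ± 0.05, adjusted p = 0.0448). Dlat, its E2 subunit, was the one tested gene whose brightest tested element had a mean above 0. This mean was 0.05 ± 0.13 (adjusted p = 0.564, limma), with mice on both sides of 0. Leaving out 1 mouse ended the calls of Pdhb (adjusted p = 0.156 without mouse 3, 0.128 without mouse 4), Idh3g (0.140 and 0.111) and Suclg1 by its brightest element (0.170 and 0.206). The Pdhb element was dim, with the mutant channel past the foreground limit on 3 of 8 arrays and the pool channel on 5. Elements of Pdhb too dim to test did not all follow. One was above 0 in each mouse, at 0.02 ± 0.01, and another was at -0.09 ± 0.09.

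In glycolysis, 3 of the 6 tested genes fell in C93F. Ldha, the lactate dehydrogenase subunit typical of glycolytic tissue, was at -0.35, -0.06, -0.41 and -0.41 (mean -0.31 ± 0.17, adjusted p = 0.00865), with mouse 2 near 0. Ldhb, the subunit typical of oxidative tissue, was at -0.22, -0.21, -0.28 and -0.07 (mean -0.19 ± 0.09, adjusted p = 0.0198), and its call was lost with print-tip loess (-0.12, adjusted p = 0.123). The 2 subunits thus moved the same way, each below 0 in 4 of 4 mice. Gapdh, the enzyme of the oxidation step of glycolysis, was at -0.25, -0.11, -0.17 and -0.19 (mean -0.18 ± 0.06, adjusted p = 0.0179), but its direction turned with print-tip loess (0.14, adjusted p = 0.242) and with the authors' processed ratios (0.22, adjusted p = 0.054). Without Gapdh, 12 of 19 genes fell. Tpi1, Pgam1 and Aldoa, which encode triose phosphate isomerase, phosphoglycerate mutase and aldolase A, did not pass, with means from -0.09 to -0.02 (adjusted p from 0.2 to 0.76). Dimmer tested elements of Tpi1 and Aldoa lay on the other side of 0 and did not pass either. That of Tpi1 was at 0.13 ± 0.17 (adjusted p = 0.18, limma), and those of Aldoa were each at 0.07 ± 0.11.

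Among the genes of gluconeogenesis and fructose use, 2 of 3 fell in C93F. Fbp1, fructose-1,6-bisphosphatase, a rate-limiting enzyme of gluconeogenesis in liver and proximal tubule, was at -0.16, -0.25, -0.35 and -0.50 (mean -0.31 ± 0.14, adjusted p = 0.00533). Khk, ketohexokinase, which phosphorylates fructose, was at -0.14, -0.16, -0.09 and -0.14 (mean -0.13 ± 0.03, adjusted p = 0.0516). The 2 arrays of a mouse differed by a median of 0.87 on this element. The fall of Khk was small and its call was lost without mouse 1, 2 or 4 (adjusted p = 0.131, 0.14 and 0.121), and in 8 of 16 alternatives in all. Pcx, pyruvate carboxylase, which supplies oxaloacetate for both gluconeogenesis and the cycle, showed -0.03 ± 0.03 (adjusted p = 0.597).

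The start regions of the 4 members with the lowest means in C93F (normexp and loess) are printed because these genes moved together in 1 line. The sequences are the 250 bases before the first listed start site (Idh1 and Ldha have 2 listed starts), 5′ to 3′ along the gene, from RefSeq on GRCm38.p6. Capitals mark matches on either strand to ACGTG (the core of the hypoxia response element, found within the CACGTG palindrome of E-box factors), to the nuclear receptor motif AGGTCA, to CCGGAA (the core of the ETS family motif) or GGGCGG (the GC box). The windows lie at chr11:21571935-21572184 on the minus strand for Mdh1, chr1:65186480-65186729 on the minus strand for Idh1, chr13:62888283-62888532 on the minus strand for Fbp1 and chr7:46845554-46845803 on the plus strand for Ldha.
Mdh1: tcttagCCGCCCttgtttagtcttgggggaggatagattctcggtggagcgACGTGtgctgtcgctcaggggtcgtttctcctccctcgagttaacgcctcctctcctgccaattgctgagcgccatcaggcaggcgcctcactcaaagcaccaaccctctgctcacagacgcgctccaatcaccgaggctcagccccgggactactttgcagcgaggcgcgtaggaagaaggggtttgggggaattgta
Idh1: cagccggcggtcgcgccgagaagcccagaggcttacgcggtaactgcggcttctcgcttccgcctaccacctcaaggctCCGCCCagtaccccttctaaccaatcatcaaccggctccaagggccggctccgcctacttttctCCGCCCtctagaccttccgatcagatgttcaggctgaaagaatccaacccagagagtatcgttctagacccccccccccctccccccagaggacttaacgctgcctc
Fbp1: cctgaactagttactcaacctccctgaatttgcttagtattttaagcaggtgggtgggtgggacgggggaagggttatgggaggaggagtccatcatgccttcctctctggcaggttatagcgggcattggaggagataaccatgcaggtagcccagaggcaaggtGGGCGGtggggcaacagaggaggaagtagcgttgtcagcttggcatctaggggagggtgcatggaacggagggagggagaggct
Ldha: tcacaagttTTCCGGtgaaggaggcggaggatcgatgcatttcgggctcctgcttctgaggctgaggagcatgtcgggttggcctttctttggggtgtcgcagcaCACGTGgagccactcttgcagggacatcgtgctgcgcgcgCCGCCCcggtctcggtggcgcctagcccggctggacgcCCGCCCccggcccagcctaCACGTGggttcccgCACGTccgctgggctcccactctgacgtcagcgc
The Ldha window, of a gene long known as a target of the hypoxia factors, held 5 matches to ACGTG, 4 of them as the 2 strands of 2 CACGTG palindromes. Mdh1 held 1 and Idh1 and Fbp1 held none. GC boxes were found once or more in all 4 windows and AGGTCA in none. Over the 36 of 37 members with a listed window, 30.6% held ACGTG, 11.1% AGGTCA, 11.1% CCGGAA and 58.3% GGGCGG, and over the first listed windows of all 27025 genes these shares were 16.6%, 13.8%, 12.2% and 32.9%. ACGTG stood in 5 of the 13 genes that fell in C93F and in 3 of the 7 tested genes that did not pass, and GGGCGG in 9 of the 13 and 3 of the 7. Letter matches of this kind are descriptions of the windows.

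A further list of genes of the TCA cycle, of pyruvate dehydrogenase and of linked steps, outside the set, moved the same way in C93F. Of 22 listed, 18 were on the array and 7 were tested. Of these 6 fell, against 14.7% of all tested elements, with a median of -0.24 over the 7. Those that fell include Me1, Glud1 and Slc25a1, which are linked to the cycle without being steps of it. Among those named here, chosen after their values were seen, Sdhd, a membrane subunit of succinate dehydrogenase, had the largest decrease at -0.42 ± 0.10 (adjusted p = 5.39e-04), and its iron-sulphur subunit Sdhb was at -0.24 ± 0.09 (adjusted p = 0.0075). Me1, cytosolic malic enzyme, was at -0.29 ± 0.09 (adjusted p = 0.00329). Other lists had few tested genes in C93F, where 14.7% of all tested elements passed as lower and 9.29% as higher. Of 4 further glycolytic isozymes and regulators none passed, and of 3 further genes of gluconeogenesis and polyol use Gpd1, cytosolic glycerol-3-phosphate dehydrogenase, fell by 0.20 ± 0.06 (adjusted p = 0.0126). Of 4 tested hypoxia response genes 1 passed, Ndrg1, as higher, at 0.09, 0.94, 0.65 and -0.05 (mean 0.41 ± 0.47, adjusted p = 0.0747), with 2 of the 4 mice near 0. The single tested sugar carrier and the single tested gene of the pentose phosphate pathway did not pass.

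Cell type markers of several kinds also moved in C93F, where 14.7% of all tested elements passed as lower and 9.29% as higher. Of 10 listed markers of the S1 and S2 segments of the proximal tubule 5 were tested and all 5 fell, and the median over the 5 ran from -0.58 to -0.46 between mice. Slc34a1, the sodium phosphate cotransporter of that segment, named after its value was seen, was at -0.64 ± 0.05, a larger change than that of any tested member. Of 7 markers of the thick ascending limb 2 were tested, Umod and Cldn10, and both fell (the median over them ran from -0.35 to -0.20 between mice). Umod is also the mutated gene, so Cldn10 was the single tested marker of this segment apart from it. Cldn10 was at -0.23 ± 0.19 (adjusted p = 0.0433, limma), with mouse 2 at 0.05. Of the markers of other cells, 1 of 2 tested fell for the S3 segment, 1 of 1 for intercalated cells, 1 of 1 for endothelium (Cdh5 at -0.25 ± 0.14, adjusted p = 0.0152) and 1 of 2 for red blood cells (Hba-a1 at -0.34 ± 0.15, adjusted p = 0.00424), these 2 genes being named after their values were seen. The other S3 marker, Slc22a13, was at 0.10 ± 0.13, and the single tested markers of principal cells, fibroblasts, leukocytes and skeletal muscle did not pass. None rose. The part of these markers in the decrease of the metabolic genes was not tested.

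**Figure D2:**
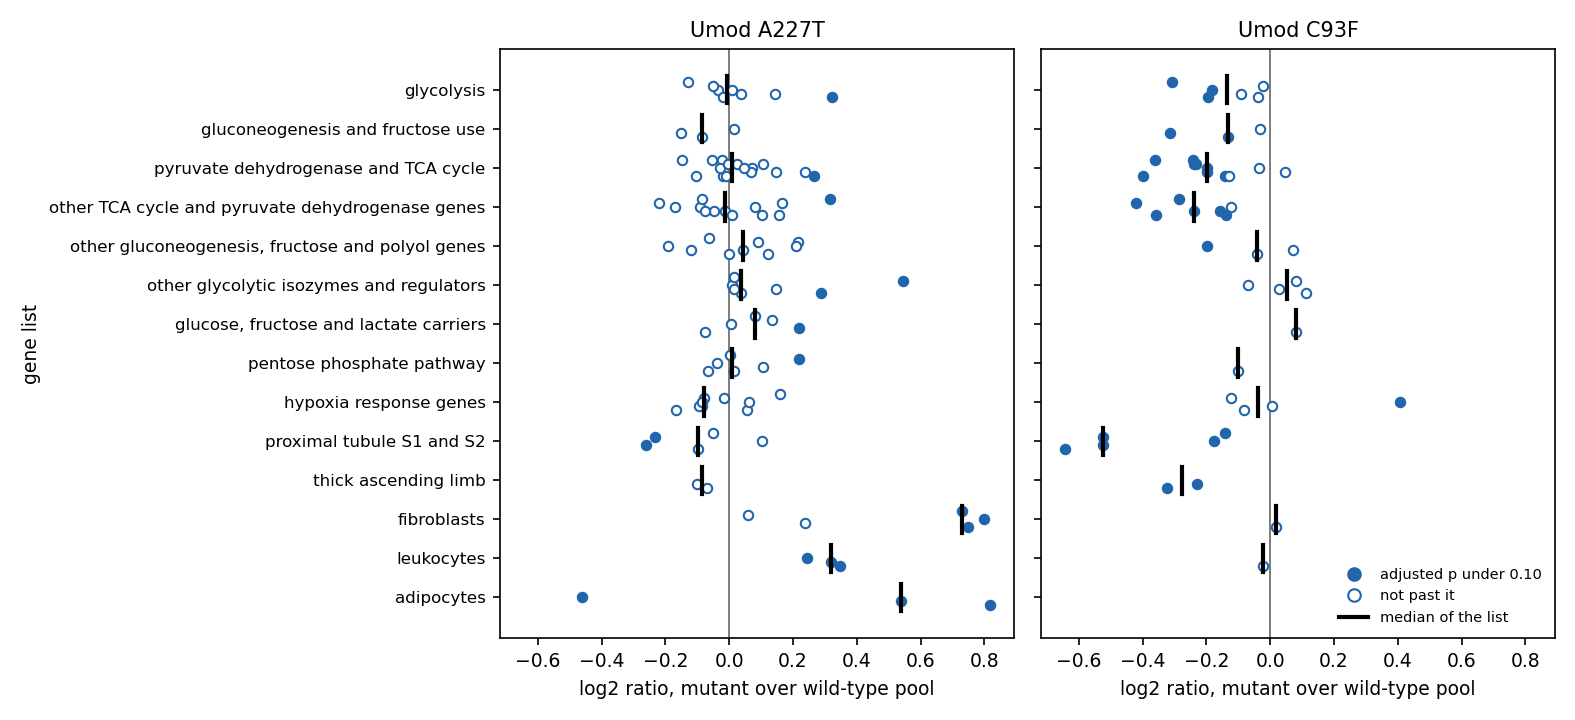
Log2 ratios of mutant over wild-type pool (horizontal axis) for the tested genes of each list in Umod A227T (left) and Umod C93F (right), with 1 point per gene (mean of 4 mice), filled where the adjusted p was under 0.10, and a bar for the median of the list. In Umod C93F the medians of the lists of TCA cycle, pyruvate dehydrogenase and linked genes lie at -0.20 and -0.24. That of the proximal tubule S1 and S2 markers lies at -0.52.

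In Umod A227T kidneys 2 of the 27 tested genes rose and none fell. Over the 9211 tested elements of this line 10.8% passed, 6.23% as higher and 4.53% as lower. Here too the members were brighter (median log2 intensity 8.98 against 7.86). The median over the 27 genes was -0.00 and that over all tested elements 0.01, and 14 of the 27 means lay below 0, against 48.1% of all elements. The mice did not share a direction: their medians over the 27 genes ran from -0.04 in mouse 2 to 0.07 in mouse 3. Every mouse was above 0 in 5 of the 27 genes and below 0 in 3, against 15.4% and 12.6% of all elements. No member reached 1.4-fold with an adjusted p under 0.10, as 1.8% of all elements did (0.793% as higher, 1.01% as lower).

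**Figure D3:**
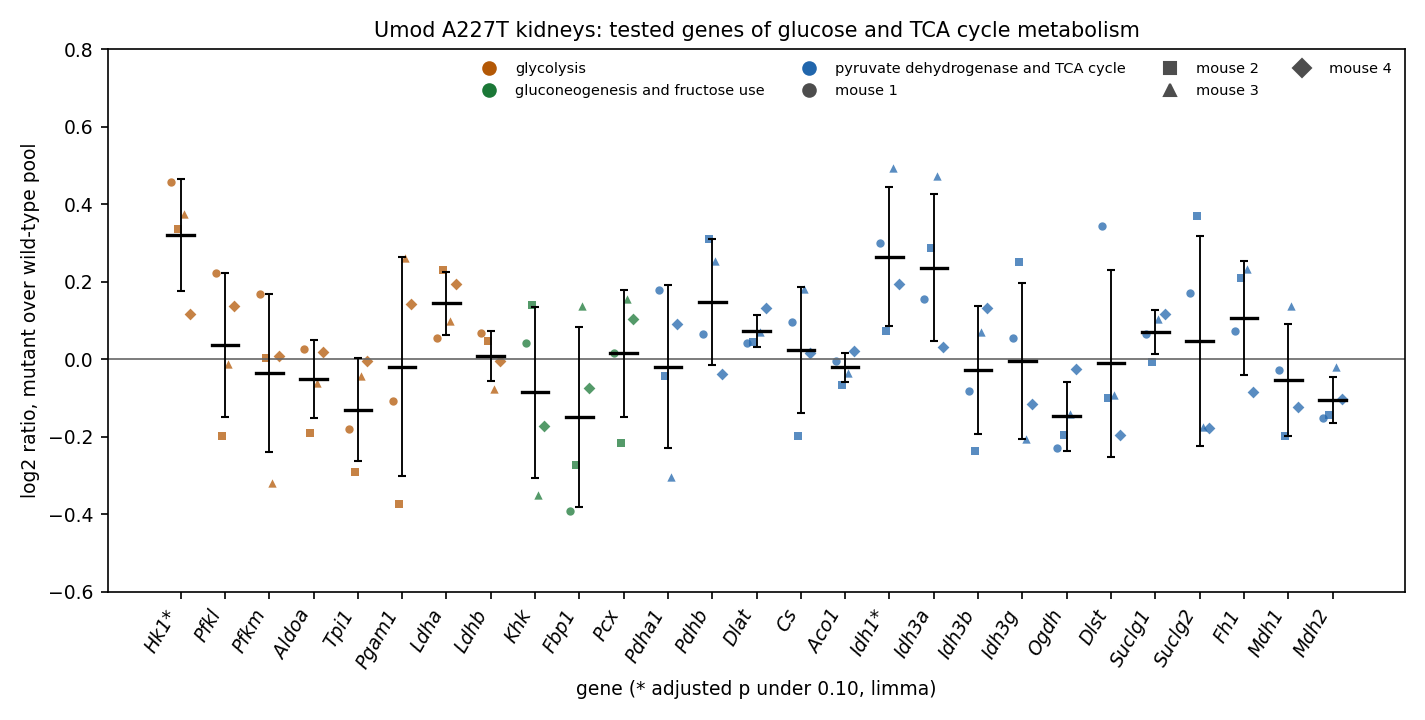
Log2 ratio of mutant over wild-type pool (vertical axis) for the 27 tested genes in Umod A227T, with 1 point per mouse, a bar for the mean and whiskers for the SD of 4 mice. Means lie on both sides of 0, from -0.15 for Fbp1 to 0.32 for Hk1.

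The genes that passed in A227T were Hk1 and Idh1. Hk1, hexokinase 1, which phosphorylates glucose at the start of glycolysis in most segments beyond the proximal tubule, was at 0.46, 0.34, 0.38 and 0.12 (mean 0.32 ± 0.14, adjusted p = 0.0284, limma). All 4 mice were above 0, mouse 4 the least. The call was lost without mouse 1 or mouse 3 (adjusted p = 0.153 and 0.114). Idh1 by its brightest element was at 0.30, 0.07, 0.49 and 0.19 (mean 0.26 ± 0.18, adjusted p = 0.0829), and its other element had a mean of -0.00 ± 0.11 with mice on both sides of 0. Its call was lost without mouse 1, 3 or 4 (adjusted p = 0.229, 0.305 and 0.142) and in 7 of 16 alternatives. Median centring in place of loess brought the count to 5 genes, adding Ldha (0.32), Pdhb (0.31) and Idh3a (0.26).

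The other glycolysis genes of A227T did not pass. Ldha had a mean of 0.14 ± 0.08 with 4 of 4 mice above 0 (adjusted p = 0.3), and Tpi1 one of -0.13 ± 0.13 with 4 of 4 below 0 (adjusted p = 0.39). Ldhb was at 0.01 ± 0.07, and the phosphofructokinase genes Pfkl and Pfkm, whose product is the main control point of the pathway, were at 0.04 ± 0.19 and -0.04 ± 0.20. Pgam1 varied most between mice, from -0.37 to 0.26. Fbp1 and Khk had negative means, -0.15 ± 0.23 and -0.09 ± 0.22, with 1 and 2 mice above 0, and Pcx stood at 0.01 ± 0.17.

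In pyruvate dehydrogenase and the TCA cycle, the 16 means of A227T ran from -0.15 to 0.26 with 8 on each side of 0 (median 0.01). With median centring this median was 0.11. Idh3a, at 0.16, 0.29, 0.47 and 0.03, was above 0 in each mouse (mean 0.24 ± 0.19) and did not pass (adjusted p = 0.125). Ogdh was below 0 in each mouse (mean -0.15 ± 0.09, adjusted p = 0.291), as was Mdh2, mitochondrial malate dehydrogenase (mean -0.11 ± 0.06, adjusted p = 0.462). Dlat was above 0 in each mouse by a small amount (0.07 ± 0.04, adjusted p = 0.624), and Aco1 stayed within -0.07 to 0.02. Suclg2 and Fh1, a succinyl-CoA ligase subunit and fumarase, had means of 0.05 ± 0.27 and 0.11 ± 0.15 with mice on both sides of 0. Pdha1, the E1 alpha subunit of pyruvate dehydrogenase, ran from -0.30 to 0.18.

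Elements of the same gene did not always give the same result. In A227T, 8 members had several tested elements, and the elements of 6 gave the same call while those of Aldoa and Idh1 did not. The brightest element of Aldoa had a mean of -0.05 ± 0.10 (adjusted p = 0.754). Another rose, at 0.57, 0.16, 0.50 and 0.42 (mean 0.41 ± 0.18, adjusted p = 0.0102), and the last was above 0 in each mouse without passing (0.22 ± 0.13, adjusted p = 0.119). The same element of Aldoa that rose in A227T was the brightest in C93F and lay close to 0 there, at -0.04 ± 0.02. In C93F, the elements of 3 of 5 such genes gave the same call and those of Cs and Idh1 did not. No element of Aldoa or Tpi1 passed there, but their means lay on both sides of 0.

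**Figure D4:**
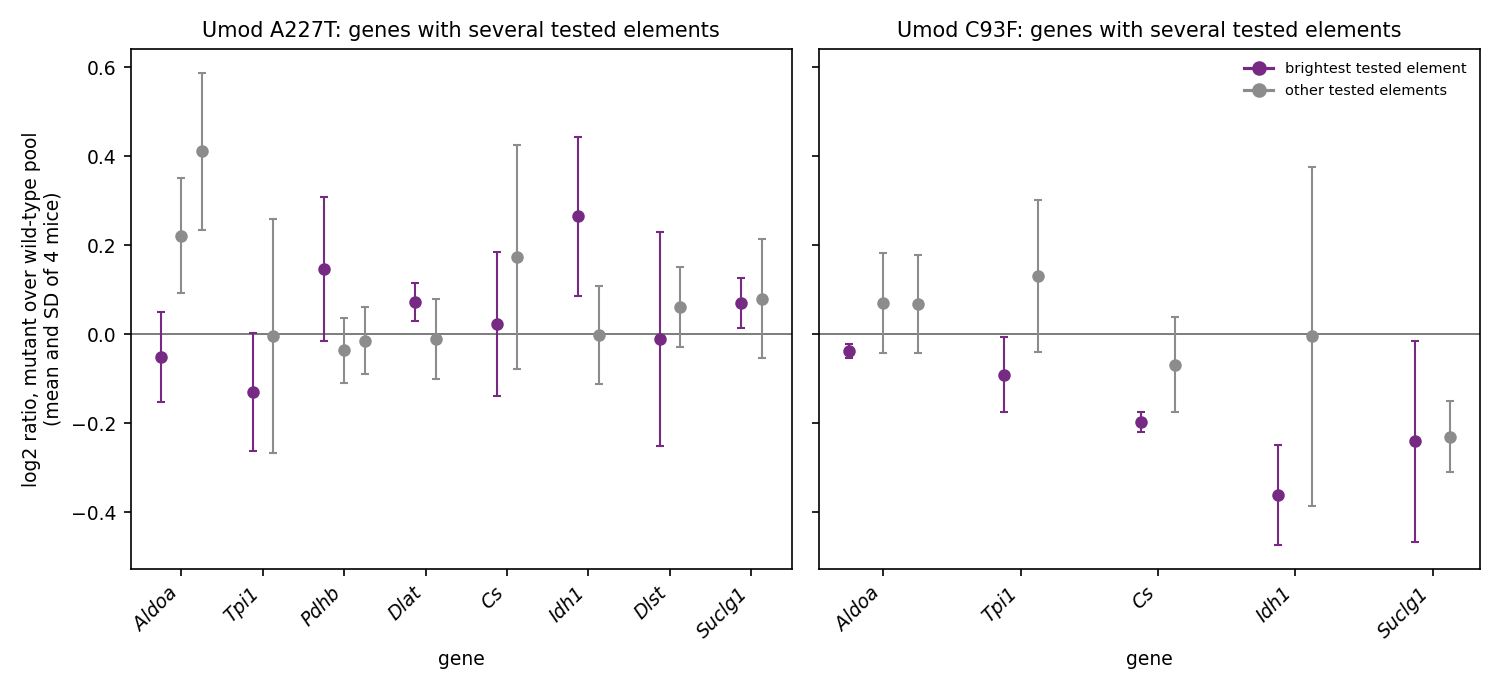
Log2 ratio of mutant over wild-type pool (vertical axis; mean and SD of 4 mice) for each tested element of genes with several, with the brightest element coloured. The elements of Aldoa in Umod A227T span -0.05 to 0.41, and those of Idh1 in Umod C93F span -0.36 to -0.01.

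Of the related lists in A227T, 1 gene passed both limits. An element that the study's supplement names Eno1b, a near-identical copy of the enolase gene Eno1 that a cDNA spot may not tell apart from it, rose at 0.56, 0.49, 0.49 and 0.64 (mean 0.54 ± 0.07, adjusted p = 7.16e-04), a 1.46-fold change seen in 4 of 4 mice. Of 13 tested genes of the further list of the TCA cycle, pyruvate dehydrogenase and linked steps 1 rose. Of 7 further glycolytic isozymes and regulators 2 rose, and of 5 sugar and lactate carriers 1 rose. Of 6 tested genes of the pentose phosphate pathway 1 rose, and of 9 further genes of gluconeogenesis and polyol use and 9 hypoxia response genes none passed. Over all tested elements of this line 6.23% passed as higher and 4.53% as lower. A count of 1 gene in so short a list is therefore not read as a result about the list. Genes of other tissue components moved in this line as well: 3 of 5 tested fibroblast markers and 3 of 3 leukocyte markers rose, and of 3 tested adipocyte markers 2 rose and 1 fell. The median over these lists ran from 0.50 to 0.69 between mice for fibroblasts, from 0.21 to 0.45 for leukocytes and from 0.38 to 0.62 for adipocytes. The proximal tubule S1 and S2 list held 2 of 5 tested markers that fell, with medians from -0.24 to -0.08. Of the other markers in A227T, 1 of 2 rose for principal cells, 1 of 4 fell for the S3 segment, 1 of 4 for endothelium and 1 of 2 for red blood cells, and those of the thick ascending limb, intercalated cells, podocytes and skeletal muscle did not pass. The part of these cells in the values of Hk1, Aldoa and Eno1b was not tested.

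The difference between the lines was tested over all 8 mice on the 2201 elements measured in both. Of the 19 members with such an element, 8 differed at an adjusted p under 0.10 (limma), and in all 8 the A227T ratio was higher. Over all these elements 28.9% passed, 16.2% with A227T higher and 12.6% with A227T lower. This balance depended on the scaling: of the elements that also differed over 1.4-fold, 46 were higher and 73 lower in A227T, against 146 and 31 with median centring and 114 and 66 with the authors' processed ratios. All members that passed were higher in A227T under each of these (8, 12 and 7 members). By role, 6 of 11 genes of pyruvate dehydrogenase and the TCA cycle, 2 of 5 of glycolysis and 0 of 3 of gluconeogenesis and fructose use passed. Every A227T mouse lay above every C93F mouse in 6 of the 19 genes, against 14.7% of all elements.

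The largest difference was that of Idh1 (0.63, 95% interval 0.42 to 0.84, adjusted p = 4.62e-04), the one member whose difference was over 1.4-fold, against 5.41% of all elements. It holds for the brightest element only, as the other element gave a difference of 0.00 (adjusted p = 0.994). Ldha followed with 0.45 (0.25 to 0.65, adjusted p = 0.00295), the A227T mice being at 0.06 to 0.23 and the C93F mice at -0.41 to -0.06. Mdh1 differed by 0.34 (0.15 to 0.53, adjusted p = 0.0123), with means of -0.05 ± 0.14 in A227T and -0.40 ± 0.07 in C93F. Idh1, Ldha and Mdh1 lead the order, and the intervals of neighbours in it overlap.

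Suclg1, compared on the element that is brightest over both lines, differed by 0.30 (0.13 to 0.47, adjusted p = 0.0148) and Pdhb by 0.29 (0.10 to 0.48, adjusted p = 0.0325). Cs, Aco1 and Ldhb showed differences of 0.22, 0.21 and 0.20 (adjusted p = 0.0934, 0.0584 and 0.0906). These last 3 were lost when single mice were left out: Cs in 7 of 8 omissions (adjusted p up to 0.203), Ldhb in 6 of 8 (up to 0.235) and Aco1 without C93F mouse 2, 3 or 4 (up to 0.142). The calls of Idh1, Ldha, Mdh1, Suclg1 and Pdhb held without any single mouse. That of Mdh1 was lost with print-tip loess (0.15, adjusted p = 0.171), and those of Pdhb and Suclg1 without the filter on dim spots (adjusted p = 0.179 and 0.109). Idh1 and Ldha kept theirs in all alternatives run. Of the 11 members that did not pass, Dlst had the largest difference, 0.23 (0.00 to 0.46, adjusted p = 0.143), and Aldoa (-0.12), Ogdh (-0.11), Dlat (-0.06) and Tpi1 (-0.04) were on the other side of 0. Aldoa compared on the element that rose in A227T would give 0.45 (adjusted p = 0.00273).

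**Figure D5:**
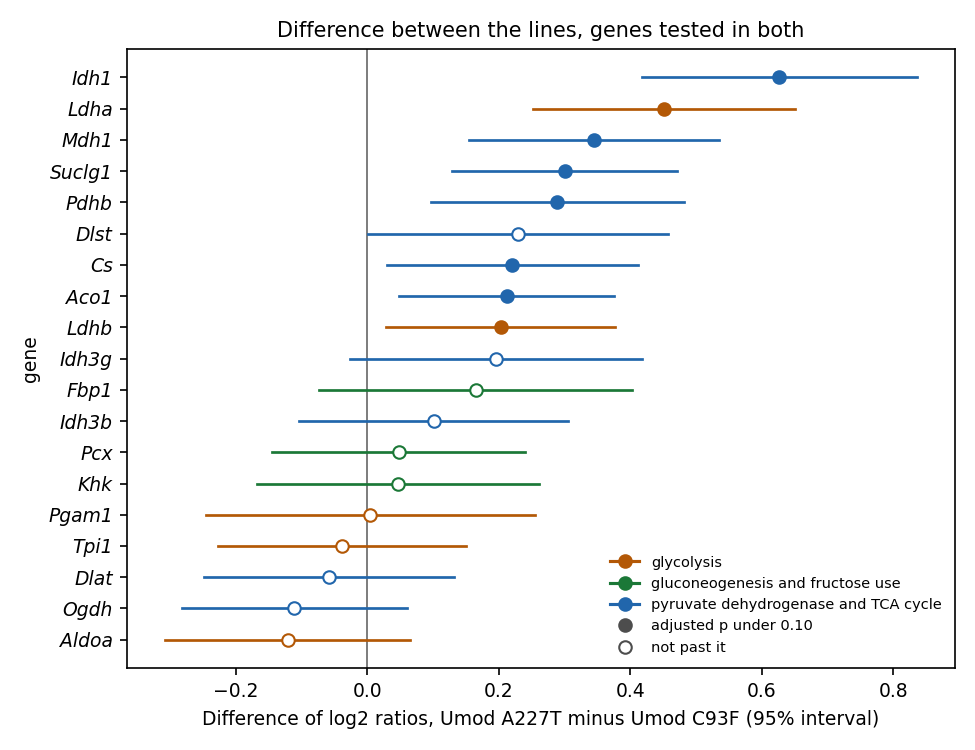
Difference of log2 ratios, Umod A227T minus Umod C93F (horizontal axis), with 95% intervals for the 19 genes tested in both lines, filled where the adjusted p was under 0.10. All 8 filled points lie to the right of 0, from 0.20 for Ldhb to 0.63 for Idh1.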

How the data were processed

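For each spot of a two-colour array, the deposited scans hold intensity values of foreground and surroundings, not normalized, a spot flag and the percent of saturated pixels per channel, all made by the authors' scanner. The authors' processed ratios proved to be log2 values when set against the scans. Their direction and centring are not stated with the ratios, though the methods define fold change as mutant over wild-type. Column medians ran from 0.00725 to 0.0467. The authors' methods name a filter on background and on dye swaps, SAM and a ratio limit of 1.4.

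Here the background was corrected by normexp (offset 50, which draws ratios toward 0) and each array normalized by loess in limma 3.58.1 under R 4.3.3. Signs were turned to mutant over pool, and means were taken over spots of a clone, then over both arrays of a mouse. Scans were joined by spot position. At 217 of 20794 positions the clone names differ between the lines, and these gave no named gene in C93F. Each line was tested against 0, and the difference over all 8 mice, with lmFit and eBayes and Benjamini-Hochberg adjustment over all tested elements. The labels do not say whether the 4 mice of a line were littermates, and precision is limited by how few arrays there are. No column was left without a sample (0). All 37 members are named, with counts of the related lists and their genes past both limits, the isozyme Eno1b, and Umod. Other genes of the related and marker lists were named after their values were seen, and 1 gene under the rule is not reported here. Members and lists were chosen with earlier results of these data known. The steps were tested on simulated data. Alternatives covered background correction, normalization, filters, tests, thresholds, the choice of element and the omission of each mouse.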

Additional observations from a re-analysis of the deposited data

Results flagged for a closer look

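In Umod C93F, 1 value of 47 gene and line groups of 4 mice stood apart: mouse 2 of Idh1, at -0.20, while the other 3 lay between -0.43 and -0.40. The gap made up 0.856 of the range of the 4 mice. Chance marks about 1 in 20 such groups.

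For 8 of 19 genes the ratios of the lines differed by the test of the difference itself (A227T minus C93F, limma over 8 mice). The differences were 0.63 for Idh1, 0.45 for Ldha, 0.34 for Mdh1, 0.30 for Suclg1, 0.29 for Pdhb, 0.22 for Cs, 0.21 for Aco1 and 0.20 for Ldhb. Mutation, age, zygosity, pool and set of hybridisations cannot be told apart in them.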

How the results depend on the processing

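The counts of elements past both limits were 166 in A227T, 35 in C93F and 119 for the difference, and those of members past the adjusted p 2, 13 and 8. With local background subtraction the elements were 289, 70 and 199 and the A227T members 1. Without background correction the C93F elements were 23. With median centring the A227T members were 5, and 70.5% of the A227T elements past both limits were the higher ones in place of 44.0%. Without the filter on dim spots the members were 1, 4 and 5 and the differing elements 229, as more dim elements entered the adjustment. The A227T members were 1 with the mean over elements, with an adjusted p under 0.05 and with SAM, and the differing members 5 with an adjusted p under 0.05. With the authors' processed ratios the differing elements were 180, 57.0% of the A227T elements past both limits were higher, and the cause was not tested. When each mouse was left out in turn, the members ranged from 0 to 2 in A227T, from 10 to 12 in C93F and from 5 to 8 for the difference, and the elements from 157 to 198, from 35 to 39 and from 107 to 142.

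In C93F Gapdh turned to 0.14 with print-tip loess and to 0.22 with the authors' ratios (the cause was not tested), and Pdhb to 0.018 without the filter, where a further element became its brightest. The median of glycolysis in C93F was -0.00 with the authors' ratios, which held values for 4 of the 6 genes and none for Ldha and Ldhb, and -0.04 without the filter, over 11 genes. The median of gluconeogenesis and fructose use in C93F was -0.08 with print-tip loess in place of -0.13. For pyruvate dehydrogenase and the TCA cycle in C93F it ran from -0.26 with local background subtraction to -0.17 without the filter. In A227T that group had a median of 0.11 with median centring, 0.07 with the authors' ratios and 0.06 without mouse 3, in place of 0.01. Glycolysis in A227T was at 0.08 with median centring in place of -0.01. Of the single ratios and differences of members not past the limit, 15 differences, 45 ratios in A227T and 7 in C93F changed sign under an alternative. Apart from the replicate block, no other alternative moved one of these counts by over 1.5 times.

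The replicate numbers name different mice of the 2 lines, and deviations of mice with the same number correlated from -0.06 to -0.01, so the numbers did not pair the samples. With the replicate number as a block, 5 members differed between the lines in place of 8, and 119 elements. The dim C93F arrays leave 10 of 30 members without a test there.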
